A study of Mus musculus with 23 samples.

Results

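The interferon-stimulated genes *Ifit1*, *Ifit2*, *Ifit3*, *Irf7*, *Irf9*, *Stat2*, *Bst2* and *B2m* were followed in cultured hippocampal neurons that had received a lentivirus and, in one group, the CRE recombinase. They were taken by symbol, as the 8 of the 56941 gene identifiers in the count tables that the GRCm39 annotation assigns to these names. They were chosen with earlier results of these data known, so counts over them are a description. All 8 had counts high enough to be tested, among 14488 genes tested. Every library came from primary hippocampal neurons of newborn (P0) mice with the NEDD8cKO genotype, in which exons 2 and 3 of both *Nedd8* alleles lie between LoxP sites, and RNA was taken after 12 days in culture as the labels give it. The neurons were infected on the first day in vitro with lentivirus encoding either RFP (the RFP group) or CRE tagged with RFP (the CRE group), expressed from the Synapsin1 promoter, which is active in neurons, so that glia and other cells in the dish were not its target. Both groups therefore carry the same genotype and a lentiviral vector, no library from uninfected neurons was analysed here, and what infection itself does to these genes is not measured by the comparison. The comparison asks how the genes differ once neurons also express CRE and lose *Nedd8*, and CRE expression and the loss of *Nedd8* cannot be told apart in it.

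Interferons are secreted proteins that warn cells of infection. When they bind their receptors, JAK kinases phosphorylate STAT proteins, among them STAT2, which joins IRF9 in a complex that binds a DNA element known as the interferon-stimulated response element (ISRE). Many antiviral genes respond, and in the brain neurons as well as glia carry type I interferon receptors. The genes described here take several places in that chain. STAT2 and IRF9 are subunits of the DNA-binding complex, IRF7 is the factor that amplifies type I interferon transcription, IFIT1, IFIT2 and IFIT3 act on viral RNA and its translation, BST2 (tetherin) holds enveloped virus particles on the cell surface, and B2M is the light chain of MHC class I.

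The 23 libraries, 12 CRE and 11 RFP, are named by group, by a number before the hyphen that was read as the culture number (1 to 3) and by a library number, so that CRE1-3 is the library labelled Cre1, replicate 3. Nothing in the labels says that libraries came from separate animals, and per the study's legends they stem from 3 biological replicates. Libraries of one replicate are not independent animals, so p-values over single libraries measure a spread that may in part be technical and may be too small, and a test on counts summed per culture number is given beside them. The comparison used 21 libraries, 11 CRE and 10 RFP, which leave out CRE3-3 and RFP3-2 as the count table of the study's own analysis does, with total counts of 7430401 to 13345552 in CRE and 9833872 to 17112815 in RFP. *Nedd8* itself checked the labels. It lay between 5.92 and 18.0 CPM (counts per 1000000 counts of the library, after scaling by edgeR's TMM factors) in the CRE libraries and between 44.1 and 76.0 CPM in the RFP libraries, and the log2 fold change was -2.44 (SE 0.17, adjusted p = 6.98e-11, edgeR quasi-likelihood test). The counts cover the whole gene, so reads from exons outside the deleted stretch remain in them. Of 8 neuron markers all were present in every library, with summed levels of 2622 to 5778 CPM in CRE and 6169 to 7362 CPM in RFP. The labelled cell type was thus found, alongside astrocyte markers that summed to 1673 to 8024 CPM. 4 libraries stood apart in their share of mitochondrial or ribosomal RNA counts. Mitochondrial genes took 0.261% of the counts in CRE1-3, 1.83% in CRE3-3 and 3.43% in RFP2-4, against 6.997% to 11.1% in the 19 libraries that did not stand apart, and the ribosomal RNA gene *Rn18s-rs5* took 24.2% in RFP3-2. Results for the 8 genes are therefore also given over all 23 libraries, over the 21 libraries left when CRE1-3 and CRE3-3 are removed as the study's Methods state, and over the 19 libraries without any of the 4.

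The stretches upstream of the start sites are shown first, because an ISRE is read from the genome and not from the counts, and the 8 genes do not all share it. The genes were chosen as interferon-stimulated genes, so the presence of an ISRE is not independent of that choice. The ISRE was searched as GAAANNGAAA and the gamma-activated site (GAS), an element of the response to interferon gamma, as TTCNNNGAA, on both strands, from 250 bases before to 50 bases after the start of the annotated canonical transcript. Among 21770 promoters of the same length, 3.84% held the ISRE and 8.81% the GAS. The ISRE was found in 4 of the 8 genes, *Ifit1*, *Ifit3*, *Bst2* and *Stat2*, and all matches lay within the following 250 bases before the start site (GRCm39, read 5′ to 3′ on the gene's strand). Capitals mark the ISRE matches.

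Bst2, chr8:71990115-71990364, minus strand: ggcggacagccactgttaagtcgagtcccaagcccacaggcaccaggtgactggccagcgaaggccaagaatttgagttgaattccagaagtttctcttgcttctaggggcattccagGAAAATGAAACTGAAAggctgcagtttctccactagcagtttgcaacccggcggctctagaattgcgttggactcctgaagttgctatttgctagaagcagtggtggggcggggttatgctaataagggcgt
Ifit1, chr19:34618021-34618270, plus strand: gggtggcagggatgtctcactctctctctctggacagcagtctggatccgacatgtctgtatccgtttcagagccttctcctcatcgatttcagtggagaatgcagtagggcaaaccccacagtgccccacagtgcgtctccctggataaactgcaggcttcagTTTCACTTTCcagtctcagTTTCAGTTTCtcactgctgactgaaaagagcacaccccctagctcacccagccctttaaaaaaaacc
Ifit3, chr19:34560649-34560898, plus strand: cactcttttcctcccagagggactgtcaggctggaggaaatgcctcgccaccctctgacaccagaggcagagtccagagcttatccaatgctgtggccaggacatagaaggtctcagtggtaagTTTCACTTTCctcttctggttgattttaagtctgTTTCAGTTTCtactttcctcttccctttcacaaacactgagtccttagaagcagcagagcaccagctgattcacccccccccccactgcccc
Stat2, chr10:128106102-128106351, plus strand: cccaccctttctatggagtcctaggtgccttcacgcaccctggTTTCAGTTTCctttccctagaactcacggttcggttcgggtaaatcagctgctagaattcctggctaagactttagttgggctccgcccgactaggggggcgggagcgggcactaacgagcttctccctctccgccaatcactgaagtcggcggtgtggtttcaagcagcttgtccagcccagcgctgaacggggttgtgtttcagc

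*Ifit1* and *Ifit3* each held 2 ISRE matches on the strand opposite to the gene, with the same letters in the same order, TTTCACTTTC and then TTTCAGTTTC. In *Ifit1* they began 86 and 67 bases before the start site, and in *Ifit3* 126 and 92 bases before it. *Bst2* held 2 matches on its own strand that overlap, from 132 to 117 bases before the start, and a GAS that overlaps the first of them, from 138 to 130 bases before the start. *Stat2* held 1 ISRE, 207 to 198 bases before its start. *Ifit2* held a GAS and no ISRE, and neither sequence of letters was found in these windows of *Irf7*, *Irf9* and *B2m*. A match of letters is not a measured binding site, and a window without one says nothing about the factor.

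In the CRE libraries 7 of the 8 genes were higher than in the RFP libraries and 0 were lower at an adjusted p under 0.05 by edgeR's quasi-likelihood test. The share of all 14488 genes tested that differed was 30.2%, with 16.4% higher and 13.8% lower. *Bst2* had the greatest difference, followed by *Ifit1* and *Irf7*, and *Stat2* was the gene not called. The median log2 fold change of the 8 genes was 1.32, beside a median of 0.02 over all genes tested. *Bst2* was also the only one of the 8 genes with every CRE library above every RFP library, an order found in 2.64% of all genes tested. At an unadjusted p under 0.05, 1 of the 8 genes (*Stat2*) was lower, and DESeq2 called 7 higher and 0 lower.

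**Figure D1:**
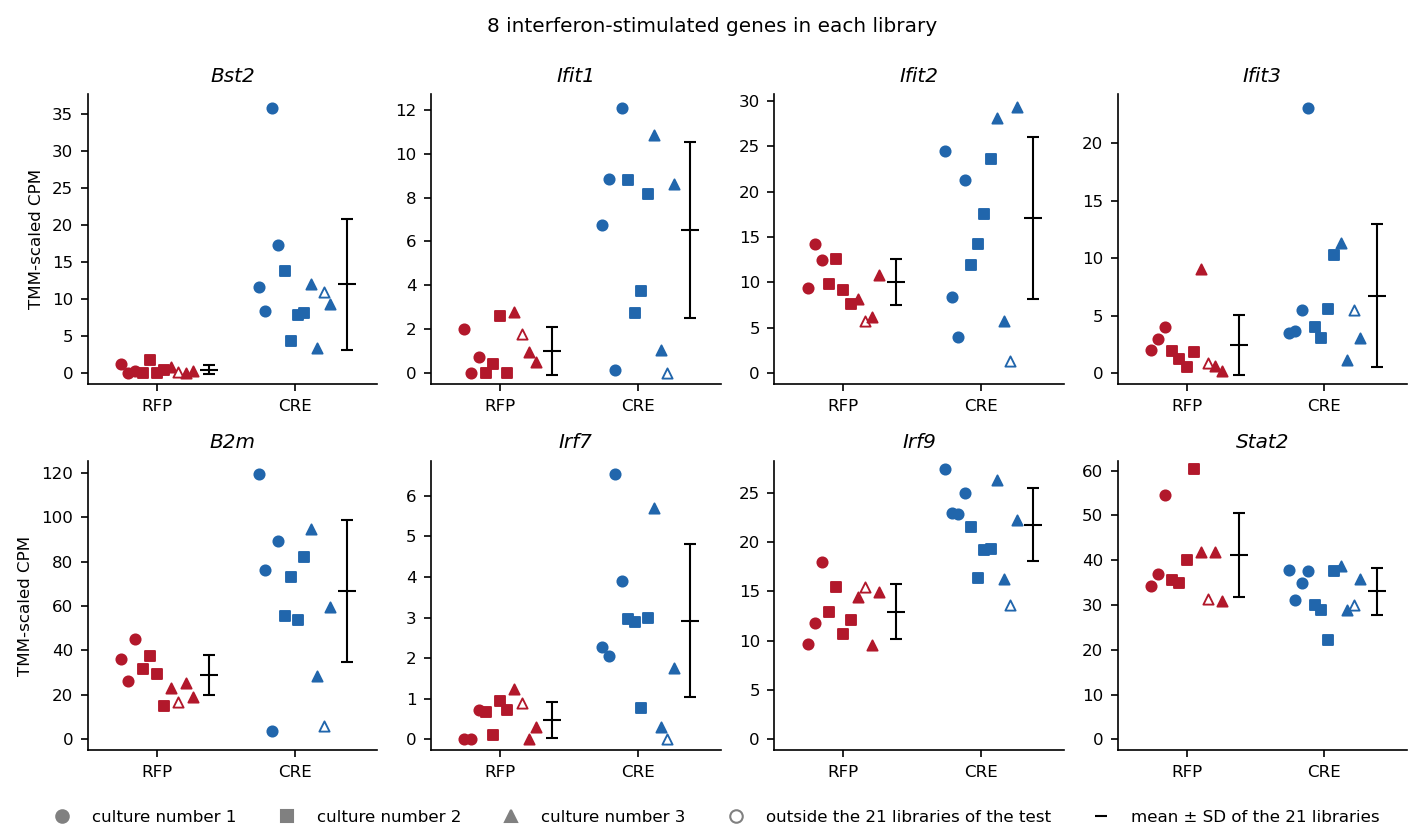
Level of each of the 8 genes in every library, as TMM-scaled CPM on a linear axis, for RFP and CRE libraries. Marker shape gives the culture number, open markers are CRE3-3 and RFP3-2, which the test leaves out, and bars are the mean ± SD of the 21 libraries tested. All CRE libraries of *Bst2* lie at or above 3.38 CPM and all RFP libraries at or below 1.74 CPM, while in *B2m* and *Ifit1* CRE1-3 lies among or below the RFP libraries.

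Levels are given as CPM, and differences as log2 fold changes from the test. Among the effectors, *Bst2* (ENSMUSG00000046718, chr8:71986895-71990114 of GRCm39, minus strand) was nearly silent in the RFP libraries. Its level there ran from 0 to 1.74 CPM with a median of 0.258, and 4 of the 10 libraries had no read, which at the depths of the libraries tested allows up to 0.175 to 0.404 CPM per library (3 counts, counting error only). In CRE libraries the level ran from 3.38 CPM in CRE3-2 over a median of 9.30 to 35.8 CPM in CRE1-3. The lowest CRE library thus lay above the highest RFP library. The log2 fold change was 4.72 (SE 0.63, adjusted p = 2.45e-06, edgeR quasi-likelihood test), a 26.4-fold difference with a 95% interval of 10.8 to 64.8. Over all 23 libraries the difference was 4.78 on the log2 scale, and without the 4 libraries that stood apart it was 4.39.

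*Ifit1* (ENSMUSG00000034459, chr19:34618271-34632174, plus strand), whose protein binds the capped ends of foreign RNA, ran from 0 to 2.79 CPM in RFP with a median of 0.607, and was at 0 in 3 of 10 libraries. In CRE it ran from 0.136 to 12.1 CPM with a median of 8.15. 8 of the 11 CRE libraries lay above every RFP library, and the 3 others were CRE1-3 at 0.136 CPM (1 count), CRE3-2 at 1.03 CPM and CRE2-2 at 2.74 CPM. On the log2 scale CRE was higher by 2.67 (SE 0.67, adjusted p = 0.00316, edgeR quasi-likelihood test), a 6.37-fold difference with an interval of 2.46 to 16.5. CRE3-3, outside the test and with 1546796 counts in all, had no *Ifit1* read. Over all 23 libraries, which add CRE3-3 and RFP3-2, the log2 fold change was 2.51.

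*Ifit3* (ENSMUSG00000074896, chr19:34560899-34566443, plus strand), which stabilises IFIT1 on RNA, ran from 0.202 to 9.08 CPM in RFP with a median of 1.87, and from 1.13 to 23.1 CPM in CRE with a median of 3.99. The groups overlapped widely, with 3 of the 11 CRE libraries above every RFP library. The spread was as large as the mean in both groups, with a coefficient of variation of 92.9% in CRE and 107% in RFP, and a library of each group lay far from the rest, CRE1-4 at 23.1 CPM and RFP3-1 at 9.08 CPM. CRE exceeded RFP by a log2 fold change of 1.45 (SE 0.52, adjusted p = 0.0379, edgeR quasi-likelihood test). It was 1.02 without CRE1-4, with an adjusted p of 0.134, and 1.95 without RFP3-1, with an adjusted p of 0.00452. The call was lost when any 1 of 10 of the 21 libraries was left out (CRE1-4, CRE2-4, CRE3-1, RFP1-1, RFP2-1, RFP2-2, RFP2-3, RFP2-4, RFP3-3 or RFP3-4), with adjusted p-values up to 0.134, and over the 19 libraries, with an adjusted p of 0.0576. Of the 50-base stretches of *Ifit3* exons, 31.7% also occur in other genes, mainly its neighbour *Ifit3b*, so counts of these genes are uncertain.

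*Ifit2* (ENSMUSG00000045932, chr19:34527932-34554524, plus strand), an inhibitor of translation, ran from 6.17 to 14.2 CPM in RFP with a median of 9.57, and from 3.95 to 29.3 CPM in CRE with a median of 17.6. 7 of the 11 CRE libraries lay above every RFP library, and CRE1-3 and CRE3-2 lay below every one of them. Its spread was wider in CRE, with a coefficient of variation of 52.1% against 24.9% in RFP. The log2 fold change was 0.75 (SE 0.28, adjusted p = 0.0424, edgeR quasi-likelihood test), close to the threshold. The call was lost when any 1 of 14 of the 21 libraries was left out (all but CRE1-2, CRE1-3, CRE2-1, CRE3-2, RFP1-2, RFP1-3 and RFP2-2), with adjusted p-values up to 0.102, and over all 23 libraries, with an adjusted p of 0.0836. Without CRE1-3 the difference was 0.86, with an adjusted p of 0.00444.

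*B2m* (ENSMUSG00000060802, chr2:121977957-121983594, plus strand) had the highest level per length of the 8 genes. In RFP it ran from 15.2 to 45.1 CPM with a median of 27.7, and in CRE from 3.54 to 119.7 CPM with a median of 73.0. 9 of the 11 CRE libraries lay above every RFP library, CRE3-2 at 28.3 CPM lay among them, and CRE1-3 at 3.54 CPM lay below all of them. CRE3-3 was likewise low, at 6.14 CPM, which rests on 9 counts. The log2 fold change was 1.20 (SE 0.32, adjusted p = 0.00537, edgeR quasi-likelihood test), and 1.33 without CRE1-3, with an adjusted p of 1.84e-05. It kept an adjusted p under 0.05 in each of the 21 fits that left out 1 library.

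The transcription factors did not move together. *Irf7* (ENSMUSG00000025498, chr7:140842619-140846398, minus strand) ran from 0 to 1.24 CPM in RFP with a median of 0.485, at 0 in 3 of 10 libraries, and from 0.308 to 6.54 CPM in CRE with a median of 2.89. 9 of the 11 CRE libraries lay above every RFP library, and CRE2-3 at 0.768 CPM and CRE3-2 at 0.308 CPM lay among them. CRE libraries were higher by a log2 fold change of 2.58 (SE 0.61, adjusted p = 0.00207, edgeR quasi-likelihood test), a 5.97-fold difference with an interval of 2.49 to 14.3. These are small counts, with at most 62 reads in a CRE library and 16 in an RFP library, and 63 exon bases are shared with *Phrf1* on the opposite strand.

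*Irf9* (ENSMUSG00000002325, chr14:55841028-55847812, plus strand) differed less. It and *Stat2* had the smallest coefficients of variation of the 8 genes in both groups, 17.1% in CRE and 21.2% in RFP for *Irf9*. It ran from 9.57 to 18.0 CPM in RFP with a median of 12.5, and from 16.3 to 27.4 CPM in CRE with a median of 22.3. 9 of the 11 CRE libraries lay above every RFP library, and CRE2-2 and CRE3-2, both at 16.3 CPM, lay below the highest RFP library, RFP1-3. The log2 fold change was 0.73 (SE 0.14, adjusted p = 0.000332, edgeR quasi-likelihood test), a 1.66-fold difference with an interval of 1.35 to 2.03. *Irf9* lies 51903 bases from *Nedd8* on chromosome 14 and shares 282 exon bases with *Rnf31* on the same strand. Within 100000 bases of *Nedd8*, 17 of 29 annotated genes were tested, and 4 were higher and 0 lower in CRE by edgeR, beside 16.4% higher and 13.8% lower of all genes tested, so the count sets this neighbourhood little apart. The 4 were *Irf9*, its neighbours *Rnf31* (log2 fold change 0.63, a ubiquitin ligase) and *Psme2* (0.67, a proteasome activator subunit that interferon induces), and *Ltb4r2* (5.00, a leukotriene receptor) on the other side of *Nedd8*.

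*Stat2* (ENSMUSG00000040033, chr10:128106352-128128735, plus strand) went the other way. It ran from 30.9 to 60.3 CPM in RFP with a median of 38.5, and from 22.2 to 38.7 CPM in CRE with a median of 35.0. No CRE library lay above every RFP library, 4 of the 11 lay below all of them, and the highest RFP libraries were RFP2-4 and RFP1-3. The log2 fold change was -0.33 with a 95% interval of -0.60 to -0.07 (SE 0.13, adjusted p = 0.0525, edgeR quasi-likelihood test), so it was not called. The call turned with 1 library. When any 1 of 9 of the 21 libraries was left out (CRE1-1, CRE1-3, CRE1-4, CRE2-4, CRE3-1, CRE3-4, RFP1-1, RFP2-2 or RFP3-4) the adjusted p fell under 0.05, to 0.0315 at the lowest, and without RFP2-4 it rose to 0.154 at a log2 fold change of -0.24.

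**Figure D2:**
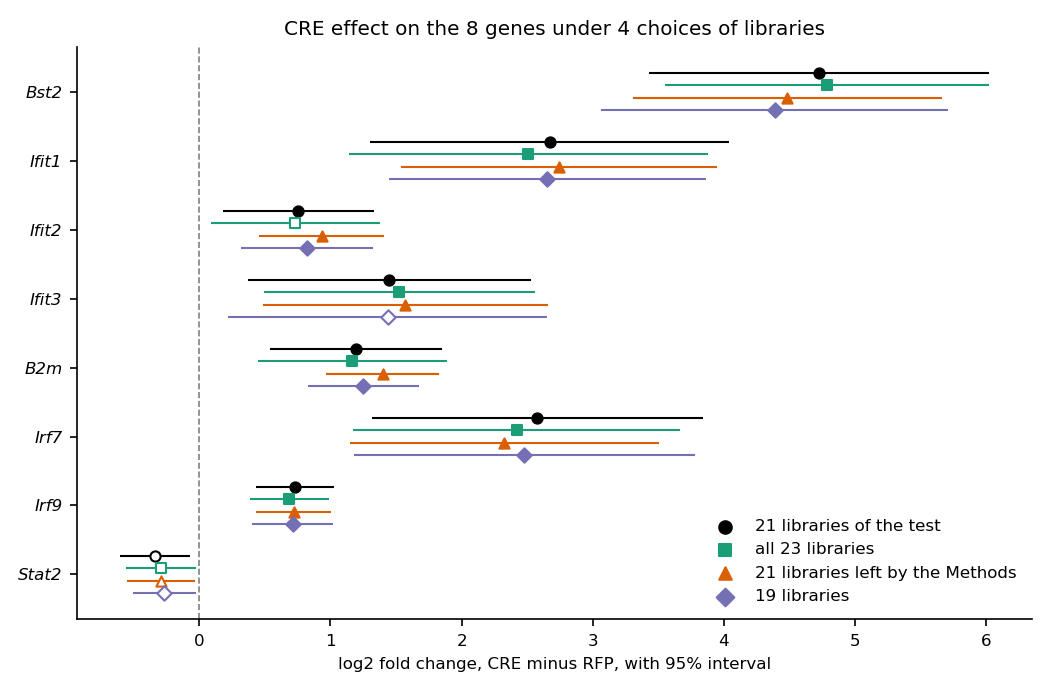
Log2 fold change between CRE and RFP of the 8 genes with its 95% interval, from edgeR, under 4 choices of libraries, with filled markers where the adjusted p was under 0.05. The values of *Bst2*, *Ifit1*, *Irf7*, *Irf9* and *B2m* are filled under every choice shown, *Ifit2* is open over all 23 libraries, *Ifit3* is open over the 19 libraries, and *Stat2* lies below 0 and is open throughout.

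The choice of libraries changed 2 of the calls. Over all 23 libraries 6 of the 8 genes were higher, against 16.4% of all genes tested, and *Ifit2* was the one lost. Over the libraries left by the study's Methods 7 were higher, against 20.2% of all genes, and over the 19 libraries 6 were higher, against 19.4%, with *Ifit3* lost. The filter on low counts asked for about 10 reads in at least 10 libraries, and 10 or more CRE libraries met it alone for *Bst2*, *Ifit1* and *Ifit3*, with 2, 4 and 7 of the 10 RFP libraries over it. *Irf7* passed with 9 CRE and 2 RFP libraries. These genes were in the test largely because the CRE libraries were high. Without any filter the log2 fold change was 4.73 for *Bst2*, 2.68 for *Ifit1* and 2.58 for *Irf7*, each with an adjusted p under 0.05, and 1.46 for *Ifit3*, with an adjusted p of 0.0516.

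The same direction was found in each of the 3 culture numbers. With counts summed to 3 sums a group, 1 for each culture number, 7 of the 8 genes were higher and 0 lower, against 11.8% higher of the 18417 genes tested, and *Stat2* again was not called (log2 fold change -0.35, adjusted p = 0.0674, edgeR quasi-likelihood test). Within culture numbers, *Bst2* had log2 fold changes of 5.29, 4.09 and 4.48 (culture numbers 1, 2 and 3, adjusted p = 0.00486, 0.01001 and 0.0334 by edgeR), and in each of them every CRE library lay above every RFP library. *Irf9* likewise did not overlap between groups in any of them, with log2 fold changes of 0.87, 0.56 and 0.73, of which the first had an adjusted p under 0.05. How many of all genes tested show such an order within culture numbers was not counted, and groups of 3 or 4 libraries reach it easily. *Irf7* had log2 fold changes of 3.81, 1.91 and 2.35 (adjusted p = 0.0470, 0.249 and 0.298 by edgeR). *Ifit1* had 2.92, 2.83 and 2.27 (adjusted p = 0.153, 0.124 and 0.370 by edgeR), and *B2m* 0.98, 1.20 and 1.44 (adjusted p = 0.314, 0.174 and 0.224 by edgeR). *Ifit2* varied more, from 0.25 in culture number 1 to 1.33 in culture number 3, and *Ifit3* from 2.03 in culture number 2 to 0.64 in culture number 3, which holds RFP3-1. *Stat2* was negative in all 3, between -0.55 and -0.15. No value of *Ifit2*, *Ifit3* or *Stat2* within a culture number had an adjusted p under 0.05 by edgeR. A test of whether the CRE effect differed between culture numbers called 0 of the 8 genes by edgeR, and 0 of them at an unadjusted p under 0.05. It called 0.0069% of all genes tested (1 gene), with 595 at an unadjusted p under 0.05. Each culture number holds at most 4 libraries a group.

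**Figure D3:**
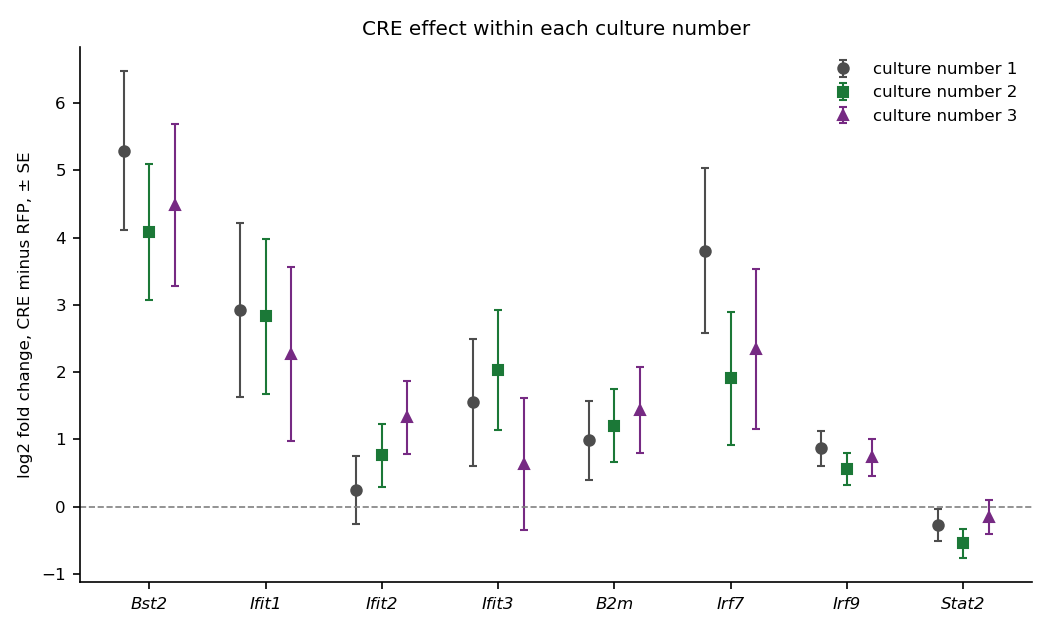
Log2 fold change between CRE and RFP of the 8 genes within each culture number, with its SE, from one edgeR fit over the 21 libraries. All values of 7 genes lie above 0 and those of *Stat2* below it. The error bars of the 3 culture numbers overlap for every gene but *Ifit2*, where those of culture numbers 1 and 3 do not meet.

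The 8 genes ordered the CRE libraries alike in part. CRE3-2 was among the lowest 2 of the 11 CRE libraries for 7 of the 8 genes and CRE3-1 among the highest 2 for 7 of the 8. CRE3-2 also had the lowest summed astrocyte markers of the libraries tested, at 1673 CPM, and CRE3-1 the highest summed mesenchymal markers, at 482 CPM. CRE3-2 was kept in all 4 choices of libraries, though its composition was unusual too. It had 23738 genes with a count, against at most 20789 in any other library. Its share of *Rn18s-rs5* (4.06%) and the relation of its counts to GC content (Spearman's rho 0.275) were the highest of the 19 libraries. The part of any of these in the levels was not tested. CRE1-3 was split. Among the CRE libraries tested it had the highest *Bst2* and *Irf7* and the lowest *B2m*, *Ifit1* and *Ifit2*, and it was the library with the fewest mitochondrial counts and the strongest relation of its counts to GC content across genes (Spearman's rho 0.745, against -0.142 to 0.275 in the 19 libraries that did not stand apart). The part of this in its levels was not tested. With the trend with GC content removed from each library, *Stat2* was called lower (log2 fold change -0.38, adjusted p = 0.0162 by edgeR) and the 7 others stayed called higher.

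Levels were compared between genes per 1000 bases of the canonical transcript. In the RFP libraries the order of median levels was *B2m* (25.5 CPM per 1000 bases), *Stat2* (8.55), *Irf9* (4.49), *Ifit2* (2.09), *Ifit3* (0.894), *Bst2* (0.320), *Irf7* (0.202) and *Ifit1* (0.0818). The first 4 were separate from each other in range, and from *Ifit2* down the ranges of neighbours in this order overlapped. In the CRE libraries *Bst2* stood next to *B2m*, with medians of 11.5 and 67.2 CPM per 1000 bases, above *Irf9* (8.01) and *Stat2* (7.77), and *Ifit1* (1.10) was last. Here the ranges of all neighbours overlapped. By this length *Irf9* and *Stat2*, which bind each other, were at like levels in CRE, where *Irf9* was above *Stat2* in 8 of 11 libraries. *Stat2* was above *Irf9* in 10 of 10 RFP libraries. The order in CRE depends on the length chosen. Counts cover all annotated exons, 5801 bases for *Irf9* and 6306 for *Stat2*, while the canonical transcripts have 2784 and 4504 bases. Before division by length the CRE medians were 22.3 CPM for *Irf9* and 35.0 CPM for *Stat2*.

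Other genes of the pathway were counted from 7 lists of 147 genes, of which 87 were tested. 50 were higher and 2 lower in CRE, with a median log2 fold change of 0.91, beside 16.4% higher and 13.8% lower of all genes tested. The lists were written with earlier results of these data known, so their counts are a description. The filter on low counts also shaped them. In 60 of the 87 every RFP library was over its level, with 30 higher and 2 lower, and in the 27 others, of which 20 were higher, 1 or more RFP libraries were under it, so CRE libraries were needed for them to be tested. Without the filter 61 of 129 were higher and 2 lower, beside 13.4% higher of all genes. Among 56 further interferon-stimulated effectors, 33 were tested, of which 25 were higher and 0 lower (0 also at an unadjusted p under 0.05 by edgeR, and 0 lower by DESeq2), with a median log2 fold change of 1.65 over those that passed the filter. 15 of the 33 had every RFP library over the filter's level, of which 11 were higher, and without the filter 35 of 56 were higher and 0 lower. The 5 with the smallest adjusted p were *Ifi27*, *Ifitm3*, *Rtp4*, *Lgals3bp* and *Ube2l6*. *Ifitm3*, which blocks virus entry at the endosome, was at 46.6 ± 18.4 CPM in CRE (SD, n = 11) and 6.64 ± 6.27 CPM in RFP (SD, n = 10), a log2 fold change of 2.80 (SE 0.39). *Rtp4* rose from 0.388 ± 0.371 CPM to 5.88 ± 3.54 CPM, with every CRE library above every RFP library. *Ube2l6*, the conjugating enzyme for the ubiquitin-like protein ISG15, had a log2 fold change of 1.53 (SE 0.23), *Ifi27* of 1.89 (SE 0.26) and *Lgals3bp*, a secreted glycoprotein, of 2.01 (SE 0.30), and all 5 had an adjusted p under 0.05 over each choice of libraries.

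**Figure D4:**
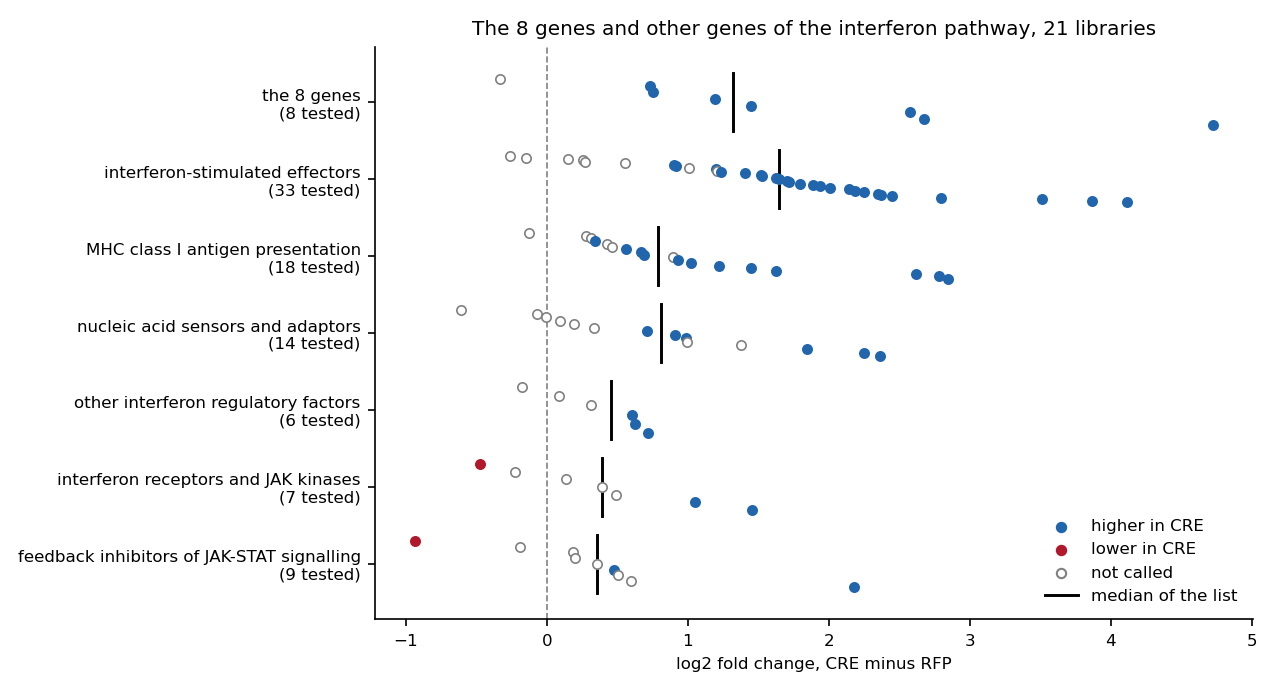
Log2 fold change between CRE and RFP for the 8 genes and for the tested genes of 6 of the pathway lists over the 21 libraries, with each gene as a point and the list's median as a bar. Effectors reach from -0.26 to 4.12 with 25 of 33 called higher, while receptors and JAK kinases lie nearer 0 with 2 of 7 higher and 1 lower. No interferon ligand passed the filter on low counts, so none is shown.

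The partners of *B2m* in MHC class I presentation moved with it in part. Of 18 tested, 12 were higher and 0 lower (0 also at an unadjusted p under 0.05 by edgeR, and 0 lower by DESeq2), beside 16.4% higher and 13.8% lower of all genes tested. In 13 of the 18 every RFP library was over the filter's level, of which 7 were higher. The 5 others, which needed CRE libraries to be tested, were all higher. Without the filter 11 of 22 were higher and 0 lower, beside 13.4% higher of all genes. *Tapbp*, which holds the peptide transporter to class I molecules, rose from 19.02 ± 3.21 to 39.2 ± 12.9 CPM (log2 fold change 1.02, SE 0.16), and *Nlrc5*, the transcriptional activator of class I genes, from 0.740 ± 0.450 to 4.68 ± 2.46 CPM (2.61, SE 0.47), and both separated all CRE from all RFP libraries. *Tap1* (1.45) and *Tap2* (1.62), the subunits of the peptide transporter, and *H2-M3* (2.84), a class I heavy chain, were also higher. Class I heavy chain genes are near copies of each other, so their counts are uncertain.

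Among nucleic acid sensors and their adaptors, 6 of 14 tested were higher and 0 lower (0 also at an unadjusted p under 0.05 by edgeR, and 0 lower by DESeq2). Of all genes tested 16.4% were higher and 13.8% lower. In 10 of the 14 every RFP library was over the filter's level, of which 5 were higher, and of the 4 others 1 was higher. Without the filter 6 of 19 were higher and 0 lower, beside 13.4% higher of all genes. *Rigi* (log2 fold change 1.85, SE 0.27) and *Ifih1* (2.25, SE 0.60) encode sensors of cytosolic RNA, *Trim25* (2.36, SE 0.34) the ligase that activates RIG-I, *Mavs* (0.71, SE 0.18) their adaptor on mitochondria and *Ticam1* (0.91, SE 0.19) the adaptor of TLR3. Of other interferon regulatory factors and IRF2-binding proteins, counted together, 3 of 6 tested were higher and 0 lower (0 also at an unadjusted p under 0.05 by edgeR, and 0 lower by DESeq2). The same shares of all genes tested stand beside this count. In all 6 every RFP library was over the filter's level. The 3 were the regulatory factor *Irf2* (0.72, SE 0.14) and the IRF2-binding *Irf2bp2* (0.60, SE 0.15) and *Irf2bpl* (0.62, SE 0.17).

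Upstream of the factors, the picture was mixed. The receptor subunits *Ifnar2* (log2 fold change 1.05, SE 0.24), for type I interferon, and *Ifngr1* (1.45, SE 0.25), for interferon gamma, were higher, and *Ifngr2* (-0.48, SE 0.11), the second gamma subunit, was lower, among 7 receptor and JAK kinase genes tested, counts that lie near the shares of all genes tested (16.4% higher and 13.8% lower). Of 9 tested inhibitors of JAK-STAT signalling, *Socs3* (2.18, SE 0.32) and *Ptpn1* (0.47, SE 0.17) were higher and *Socs2* (-0.93, SE 0.24) was lower, counts that also lie near those shares. Interferons themselves were hardly detected. Of 20 ligand genes 17 had no count in any of the 23 libraries, and none passed the filter on low counts. Without the filter 3 were tested and 1 was called higher by edgeR. That call rests on few counts and is among the 61 pathway genes higher without the filter. *Ifnab* had 12 counts over the CRE libraries tested, 11 of them in 1 library, and 0 over the RFP libraries, *Ifng* had 1 count in CRE and 0 in RFP, and *Ifne* had 0 counts in CRE and 3 in RFP. Among the 21 libraries tested, a library without a count allows up to 0.175 to 0.404 CPM. In CRE3-3, with 1546796 counts in all, it allows more.

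Markers of cell types moved with the groups as well, and bulk RNA cannot tell fewer cells of a type from less RNA per cell. The counts of markers called by edgeR stand beside 16.4% higher and 13.8% lower of all genes tested. In summed neuron markers the highest of the 11 CRE libraries lay under the lowest RFP library, and 6 of 8 neuron markers were lower and 0 higher by edgeR and by DESeq2, with no positive log2 fold change among them. Summed microglia markers were 47.6 to 106.1 CPM in CRE and 26.8 to 42.7 CPM in RFP, with all 11 CRE libraries above every RFP library. Most of that sum was *Sall1*, a transcription factor at 45.9 ± 19.5 CPM in CRE and 26.8 ± 3.69 CPM in RFP, and without it, a step chosen after its values were seen, the sum of the other 17 markers was 10.9 to 37.3 CPM in CRE and 4.92 to 17.0 CPM in RFP, with 3 of 11 CRE libraries above every RFP library. 13 of the 18 microglia markers averaged under 1 CPM in both groups. By edgeR 5 of them could be tested, of which 3 were higher and 0 lower, and 4 had a positive log2 fold change. DESeq2 tested 13, of which 3 were higher and 0 lower, and 7 had a positive one. The defining microglia marker *Cx3cr1* had 0 counts in all 11 CRE libraries, and some in 1 or more of the RFP libraries tested. *Aif1* averaged 0.111 CPM in CRE and 0.189 CPM in RFP, and *Csf1r* 0.592 and 1.21 CPM. *Tmem119* was higher in CRE, at 1.82 ± 1.05 CPM against 0.193 ± 0.283 CPM, and *Cd68*, a lysosomal protein of phagocytes, at 8.37 ± 7.49 against 2.69 ± 0.971 CPM.

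**Figure D5:**
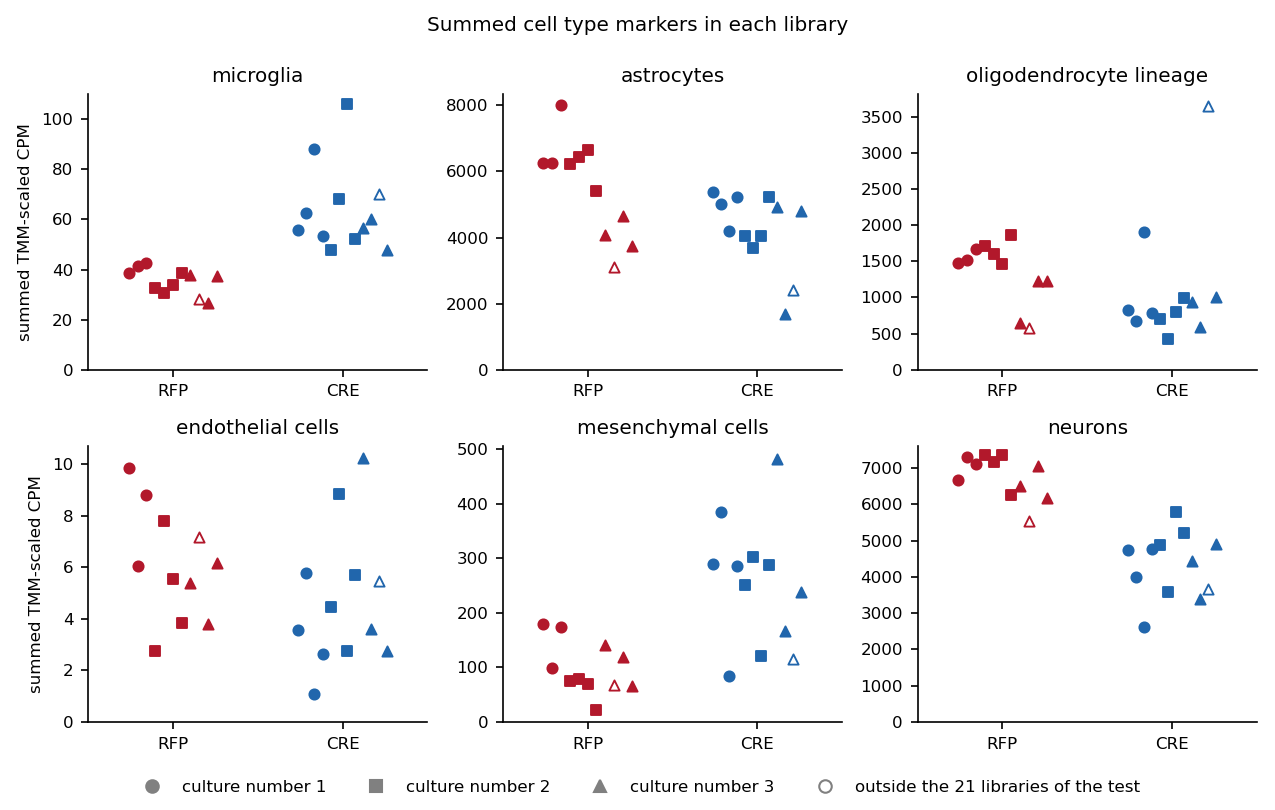
Summed TMM-scaled CPM of marker lists for 6 cell types in every library, on linear axes that start at 0, with culture numbers by shape and open markers for CRE3-3 and RFP3-2. Of the libraries tested, the CRE libraries lie below all RFP libraries for neurons (2622 to 5778 against 6169 to 7362 CPM) and above them for microglia (47.6 to 106.1 against 26.8 to 42.7 CPM).

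The other cell types gave no uniform order. Mesenchymal markers summed to 84.6 to 482 CPM in CRE and 21.9 to 179.6 CPM in RFP, with 8 of 11 CRE libraries above every RFP library. By edgeR 2 of 8 were higher and 0 lower (0 lower also at an unadjusted p under 0.05 and by DESeq2), led by the pericyte gene *Rgs5*. That count lies near the 16.4% higher of all genes tested. Astrocyte markers summed to 1673 to 5368 CPM in CRE and 3739 to 8024 CPM in RFP, with 2 higher (*Sox9* and *Gja1*) and 4 lower of 10 tested. In the oligodendrocyte lineage 5 of 8 markers were lower and 0 higher by edgeR and by DESeq2. The 1 endothelial marker tested by edgeR was lower. DESeq2 tested 6 endothelial markers, of which 1 was lower and 0 higher, while 4 had a positive log2 fold change, with a median of 0.71. The part of any of these cell types in the levels of the 8 genes was not tested.

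The genes that followed the 8 most closely from library to library were ranked by Pearson's correlation with their mean, after log2 CPM had been centred within each group, over 21 libraries and 14480 other genes. This is a description without a test, since these values share libraries, depth and base composition. Each of the 8 genes correlated with the mean of the 7 others at 0.25 (*Bst2*) to 0.57 (*Irf9*). The 10 closest genes were *Pdpn* (0.88), *Cybrd1* (0.85), *Rnf213* (0.83), *Cnn3* (0.82), *Ctnnb1* (0.82), *Timp3* (0.79), *Leprot* (0.79), *Jcad* (0.77), *Slc39a12* (0.77) and *Ifi27* (0.76). Of these *Ifi27* was in a pathway list. *Rnf213*, *Jcad* and *Ifi27* were higher in CRE, and the 7 others were not called. Of the closest 100 genes, 7 were in a pathway list, and the median correlation was 0.32 over pathway genes and 0.04 over all genes.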

How the data were processed

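RNA was measured by sequencing in 23 libraries. Per the labels and the study's methods, the authors used the Illumina Stranded mRNA Prep kit and a NovaSeq6000, converted reads with bcl2fastq 2.20.0.422, aligned them with STAR 2.7.8a to GRCm39 with Ensembl 110, allowing 2 mismatches in 50 bases, and obtained counts per gene from featureCounts 1.5.0-p1. The strand setting and the treatment of reads with several alignments are not given in the sources used here. The authors deposited raw whole-number counts, 1 table per library.

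Identifiers were named by GENCODE M39 (56323 of 56941, with 99.95% of the counts). edgeR 4.0.16 in R 4.3.3 was used with filterByExpr, TMM factors, robust quasi-likelihood fits and p-values adjusted by Benjamini-Hochberg across the genes tested, with condition as the only term. The test was checked on simulated counts. CPM used TMM factors over all 23 libraries. Start sites and sequences came from GENCODE M39 and the GRCm39 genome. The genes and lists were chosen with earlier results of these data known. Named pathway genes were the up to 5 with the smallest adjusted p under 0.05 in each list, any ligand with a count, called genes within 100000 bases of *Nedd8*, and the 10 genes most like the 8. Of the 19 microglia markers, *Fcrls* had no identifier in the tables. 1 gene of a pathway list is not reported here and was left out of the counts. The alternatives were other sets of libraries, DESeq2 1.42.0, other scalings, no filter, blocks, sums per culture number, libraries and culture numbers left out, and removal of trends with GC content. Python 3.11.15 with pandas 2.3.3, numpy 2.4.6, scipy 1.17.1 and matplotlib 3.10.9 was used for the rest.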

Additional observations from a re-analysis of the deposited data

Results flagged for a closer look

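For *Ifit3* the highest RFP library, RFP3-1, was at 9.08 CPM and the next at 3.98 CPM, a gap of 0.575 of the range of the 10 RFP libraries, above the critical value of 0.466 of Dixon's test. Of 16 such gaps examined in RFP, at the high and low end of each of the 8 genes, this was the 1 above it, and chance alone gives about 1 in 20 groups. RFP3-1 was also the highest RFP library for *Ifit1* (2.79 CPM) and *Irf7* (1.24 CPM). Groups of more than 10 libraries were not tested in this way, so the 11 CRE libraries have no such test. Their gaps of more than 0.5 of the range were at the high end of *Bst2* (CRE1-3 at 35.8 CPM, the next at 17.3 CPM, 0.570 of the range) and of *Ifit3* (CRE1-4 at 23.1 CPM, the next at 11.3 CPM, 0.535 of the range).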

How the results depend on the processing

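Over 35 alternatives the calls of *Ifit1*, *Irf7*, *Irf9* and *Bst2* held in 35, of *B2m* in 33, of *Ifit3* in 20 and of *Ifit2* in 16, and *Stat2* was called lower in 10. No direction of the 8 genes turned in any of them. *B2m* lost its call without culture number 2 (adjusted p = 0.108) and without culture number 3 (0.0605). Genes that differed numbered 4370, 6920 with no filter on low counts (32701 tested) and 2114 without culture number 2, where 4 of the 8 genes, 31 pathway genes higher and 1 lower were called. With 1 library left out 4031 to 5507 genes differed, 5 to 7 of the 8 were higher and 0 to 1 lower, and 41 to 53 pathway genes were higher and 2 to 3 lower. With 1 culture number left out these were 2114 to 3730, 4 to 6, 0, 31 to 40 and 1 to 2. With trends with GC content removed 1 of the 8 (*Stat2*) was lower. The median of all genes moved from 0.02 to 0.14 with no filter and to 0.11 with total counts, against which *Stat2* stayed below 0.

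Neither number paired the samples. Deviations of same-numbered CRE and RFP libraries correlated at 0.03, 0.02 and 0.14 by culture number and at 0.09, -0.05, -0.10 and -0.23 by library number. With culture number as a replicate block 4267 genes differed and 6 of the 8 were higher, and with library number 4235 and 5. Depth limits *Bst2*, *Irf7* and *Ifit1*, whose RFP libraries held at most 17, 16 and 44 reads.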
